A study of Mus musculus with 9 samples.

Results

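Mouse embryonic stem cells without Terc (Terc-/-) were set against cells with 1 copy of the gene (Terc+/-), with 3 arrays each, so that 6 of the 9 arrays of the study formed the comparison. The members were chosen by the genotype in the labels and by no measured value, and all 25697 probes of the array entered. The cells were ntESCs, which are embryonic stem cells derived by nuclear transfer, of the strain C57BL/6, and 3 Terc+/+ arrays served to estimate the spread and are given beside them where that helps. All genotypes shared the same culture: serum-free medium with knockout serum replacement (KSR) and LIF on mouse embryonic fibroblasts (MEF) halted with mitomycin-C, which were taken away after trypsin before RNA was prepared. The labels do not say whether the 3 samples of a genotype were separate lines or cultures of 1 line, nor how many generations without Terc preceded the Terc-/- cells, and part of the variation among arrays of a genotype may be technical. Values are log2 intensities of biotin-labelled cRNA on bead arrays. Each gene is given by its brightest probe, and differences are Terc-/- minus Terc+/-.

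Telomerase adds telomere repeats to chromosome ends by copying a template in its RNA subunit, the product of Terc, with the reverse transcriptase encoded by Tert. Embryonic stem cells keep telomerase active, and in the mouse telomeres shorten over cell divisions and generations without it. Terc is known as a dose-sensitive gene, since cells with 1 copy hold less telomerase RNA than cells with both. Setting Terc-/- against Terc+/- ntESCs addresses what the loss of the remaining copy adds.

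No probe of the annotation names Terc or Nanog (0 probes each), so the genotypes rest on the labels. The cells carried the markers of embryonic stem cells in both genotypes. Of 10 such markers 9 were measured, and their means over all 9 arrays lay between percentiles 86.0 and 99.8 of all probes. In the 6 arrays compared, their lowest value was 8.79, that of Zfp42. Pou5f1, which encodes the pluripotency factor Oct4, had 11.72, 12.21 and 12.32 in Terc-/- and 12.10, 12.25 and 11.79 in Terc+/- ntESCs. Zfp42, the gene for Rex1, had 8.91, 9.14 and 9.19 in Terc-/- and 8.79, 9.22 and 8.82 in Terc+/- ntESCs. The arrays of both genotypes overlapped for both genes. Esrrb, Dppa5a, Sall4, Utf1 and Tdgf1 differed by 0.01 to 0.13 in size.

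No probe was called between Terc-/- and Terc+/- ntESCs at an adjusted p under 0.05 (limma, Benjamini-Hochberg over all probes), which is 0 of 25697 or 0.00%. The smallest adjusted p was 1.00. At an unadjusted p under 0.05 limma gave 466 probes (1.81%), with 199 higher and 267 lower in Terc-/- ntESCs, where 1284.85 would be expected if no probe differed. The 3 arrays of each genotype stood wholly apart for 2016 probes (7.85%), 931 of them higher and 1085 lower in Terc-/- ntESCs. That share is no larger than a random order of the arrays would give, so standing apart describes a gene and tests nothing. Among the 16110 named genes, 596 stood apart higher (3.70%) and 627 lower (3.89%), which is the background for list members that stood apart. Of their means 7758 were higher and 8352 lower, with a median difference of -0.0044.

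The 95% intervals of single probes, not adjusted for the number of probes, show which differences remain compatible with these arrays. They do not show which differences could have been called. For 24417 probes the 95% interval of the difference lay within 2-fold either way, and for 78.5% it lay within 1.5-fold. Among the 8404 probes with a mean above 7, the share within 2-fold was 88.9%. The median standard error of a difference was 0.11 over all probes and 0.19 over those brighter probes. A difference of more than 2-fold was seen in the means of 26 probes, 22 higher and 4 lower in Terc-/- ntESCs, and in only 1 of these, the probe of Taf15, did the arrays stand apart.

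Arrays of opposite genotypes could be as alike as arrays of 1 genotype. The correlation across probes, which are no replicates of each other, was 0.982 to 0.993 within Terc-/- and 0.981 to 0.991 within Terc+/- arrays. Between the genotypes it was 0.975 to 0.995, with the highest value for Terc-/- replicate 1 and Terc+/- replicate 3, and 0.993 for Terc-/- replicate 3 and Terc+/- replicate 1.

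**Figure D1:**
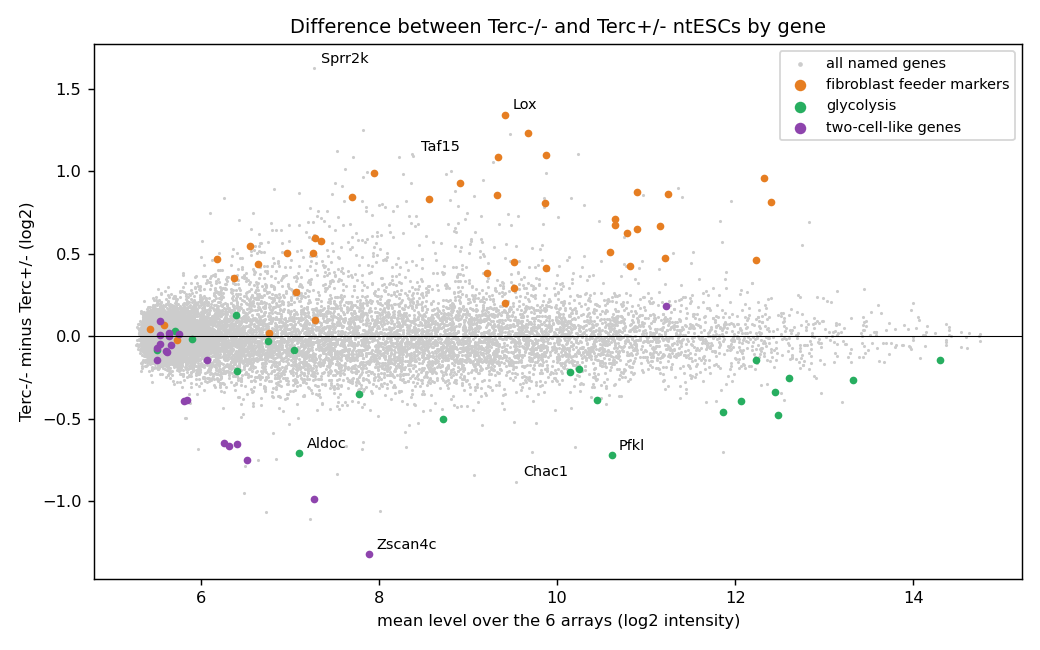
Each point is 1 named gene, with its mean log2 intensity over the 6 arrays on the horizontal axis and its Terc-/- minus Terc+/- difference (log2) on the vertical axis. Feeder markers (orange) lie above 0 with 1 exception, 20 of 22 glycolysis genes (green) lie below 0, and two-cell-like genes (purple) reach -1.32 at Zscan4c.

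Taf15 stood out among the higher genes. Taf15 encodes an RNA-binding protein that takes part in transcription. Its level was 8.52, 9.32 and 8.97 in Terc-/- arrays and 7.88, 7.78 and 7.86 in Terc+/- arrays. All 3 Terc-/- arrays were higher, by 1.09 in the mean (SE 0.23), or 2.13-fold, with a 95% interval of 0.57 to 1.61 and an adjusted p of 1.00 (limma). The Terc+/+ arrays, at 8.03, 8.74 and 8.47, lay between the means of the other genotypes.

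Among genes that stood apart with a mean above 6.5, the largest higher differences after Taf15 included regulators of transcription. Trps1, which encodes a GATA-type zinc-finger repressor, had 7.40, 8.59 and 8.13 in Terc-/- and 7.35, 6.79 and 7.24 in Terc+/- arrays. The lowest Terc-/- array exceeded the highest Terc+/- array only narrowly, and the difference was 0.91 (SE 0.28). Zfhx3, a zinc-finger homeobox factor, had 10.32, 10.57 and 10.84 in Terc-/- and 9.98, 9.09 and 10.14 in Terc+/- arrays. Its second probe stood apart too, with a difference of 0.83 beside 0.84 for the brightest. Rcor1, the corepressor CoREST of the histone demethylase complex, had 7.78, 8.06 and 8.36 in Terc-/- and 7.27, 7.35 and 7.68 in Terc+/- arrays. Its difference was 0.63 (SE 0.31).

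The other higher genes of this kind were of mixed function. Hsd3b2, a 3-beta-hydroxysteroid dehydrogenase, averaged 11.83 ± 0.57 in Terc-/- and 10.99 ± 0.11 in Terc+/- arrays (SD, n = 3 each). Its difference was 0.84 (SE 0.45). Its other probes, all dim, gave -0.07, which stood apart lower, and -0.03, 0.03, 0.02 and 0.39, which overlapped. Ppp3ca, the catalytic subunit of calcineurin, averaged 8.43 ± 0.41 in Terc-/- and 7.63 ± 0.35 in Terc+/- arrays. One further probe of Ppp3ca stood apart with 0.44, and a remaining dim probe gave -0.04. Rraga, the Rag GTPase that brings amino acid signals to mTORC1, had 7.03, 7.24 and 7.12 in Terc-/- and 6.61, 6.32 and 6.41 in Terc+/- arrays. Its spread within Terc-/- and within Terc+/- arrays was small beside the difference of 0.69 (SE 0.25). The Terc+/+ arrays spread more widely, at 6.57, 6.36 and 7.45. Tatdn2, of the TatD nuclease family, was higher by 0.73, the nucleoplasmin pseudogene Npm3-ps1 by 0.69 and the predicted gene Gm7609 by 0.69. The Terc+/+ mean lay between the other genotypes for 8 of these 10 genes and below Terc+/- for the other 2, Trps1 and Rcor1.

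Among genes that stood apart with a mean above 6.5, 3 of the 10 largest lower differences were in enzymes of glycolysis. Pfkl, Aldoc and Aldoa are described with that pathway below. Car4, a membrane-bound carbonic anhydrase, had 7.63, 7.35 and 7.52 in Terc-/- and 8.26, 8.51 and 7.64 in Terc+/- arrays. The highest Terc-/- and the lowest Terc+/- array nearly met, and the difference was -0.64 (SE 0.58), or -0.34 with the fibroblast marker score of each array as a covariate. Srp54a, a protein of the signal recognition particle, had 8.27, 7.89 and 7.85 in Terc-/- and 8.48, 8.86 and 8.41 in Terc+/- arrays. Its difference was -0.58 (SE 0.19). Skil, the SMAD corepressor SnoN, had 8.74, 8.99 and 8.78 in Terc-/- and 9.38, 9.22 and 9.24 in Terc+/- arrays. These arrays were tight within each genotype, while Terc+/+ arrays ran from 7.88 to 9.59, and the difference of -0.44 had an SE of 0.37.

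Reep4, which in human cells helps clear the endoplasmic reticulum from mitotic chromosomes, averaged 7.67 ± 0.10 in Terc-/- and 8.12 ± 0.28 in Terc+/- arrays (SD, n = 3 each). The microtubule-associated gene Map1b was lower by 0.45, and its 3 dimmer probes, at -0.03 to -0.17, overlapped. Mpnd was lower by 0.44, with its nearest arrays at 9.30 in Terc-/- and 9.33 in Terc+/-, and the cytochrome P450 gene Cyp2s1 by 0.42. With the fibroblast marker score as a covariate Mpnd gave -0.23, Skil -0.25, Reep4 -0.37 and Cyp2s1 -0.38. Srp54a gave -0.58 and Map1b -0.60 with it. For these 10 lower genes the Terc+/+ mean lay between the genotypes in 3, beyond Terc-/- in 4 and beyond Terc+/- in 3.

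**Figure D2:**
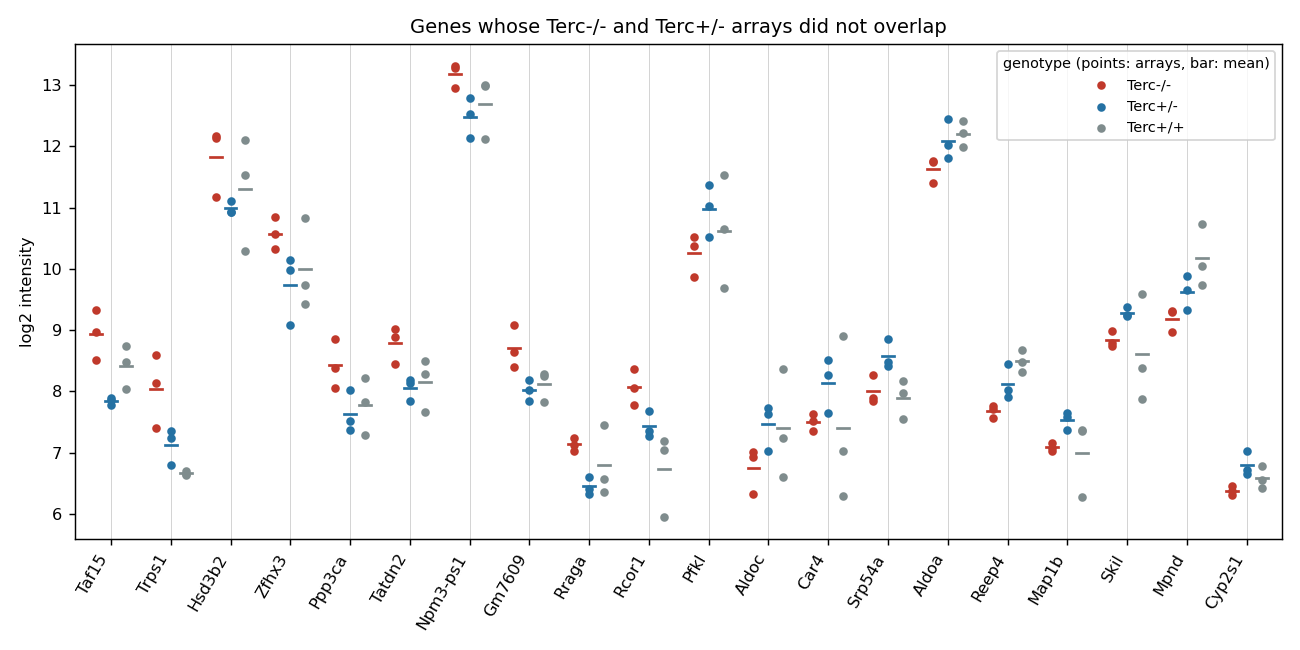
Log2 intensity (vertical axis) of the 10 genes with the largest higher and the 10 with the largest lower difference among genes with a mean above 6.5 whose Terc-/- and Terc+/- arrays did not overlap. Points are arrays and bars are means of 3 arrays, and the Terc-/- and Terc+/- points are apart because the genes were picked for that, while Terc+/+ points often lie among both.

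Apart from Taf15, described above, the smallest p-values mostly belonged to modest differences with little spread. Washc5, which encodes strumpellin of the WASH complex of endosomes, had 8.72, 8.62 and 8.73 in Terc-/- and 8.18, 8.25 and 8.39 in Terc+/- arrays. Its difference of 0.41 (SE 0.08) amounts to 1.33-fold. Prcc, named after its fusion in papillary renal cell carcinoma, had 6.32, 6.22 and 6.30 in Terc-/- and 6.54, 6.73 and 6.71 in Terc+/- arrays. Its difference was -0.38 (SE 0.07). Both genes stood apart by more than their spread within a genotype, with an adjusted p of 1.00 each (limma).

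The other higher probes with the smallest p-values named Dus4l (0.57, SE 0.13), a relative of the tRNA dihydrouridine synthases, Kirrel2 (0.40, SE 0.09), a nephrin-like adhesion protein, and Nhlrc2 (0.44, SE 0.09). The brightest probe of Nhlrc2 stood apart as well, at 0.36. The lower ones named 6430411K18Rik (-0.68, SE 0.15), Gm2a (-0.36, SE 0.08), the activator that presents GM2 ganglioside to its hydrolase, Gpr141b (-0.31, SE 0.07) and Tmc6 (-0.42, SE 0.09). The brightest probe of Tmc6 overlapped at -0.31, and its remaining probe gave -0.17. Gpr141b lay near the floor of the array in both genotypes, at 5.62 to 6.01. 6430411K18Rik did so in Terc-/- arrays, at 5.78, 5.57 and 5.54, and had 6.67, 6.14 and 6.11 in Terc+/- arrays. Its Terc+/+ mean was 5.53.

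The largest differences in the means came with the widest spread. Sprr2k, a small proline-rich protein of epithelia, had 6.80, 8.21 and 9.24 in Terc-/- and 7.19, 5.92 and 6.26 in Terc+/- arrays. The arrays overlapped, and the difference of 1.63 had an SE of 0.65. The next 7 higher genes were Lox (1.34), Itga11 (1.25), Acta2 (1.23), Tnc (1.23), Gpr176 (1.13), Cavin2 (1.11) and Anxa3 (1.11). In each of them Terc-/- replicate 3 and Terc+/- replicate 1 held the highest values of their genotype. Lox, which crosslinks collagen, shows the pattern with 8.83, 9.88 and 11.55 in Terc-/- and 10.67, 8.15 and 7.41 in Terc+/- arrays.

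Lox and Acta2, the smooth muscle actin, belong to the fibroblast feeder markers, which embryonic fibroblasts make in quantity and differentiating mesenchymal cells make too. Of 46 listed markers 42 were measured, and 41 had a higher mean in Terc-/- ntESCs, with a median of 0.56. None of the 42 reached an unadjusted p under 0.05 (limma), against 130 of all named genes higher (0.807%), and none stood apart. The markers were at high levels, with a median member mean of 9.70 in Terc-/- and 8.96 in Terc+/- ntESCs. Of them, 32 had their highest value in Terc-/- replicate 3, while 19 had their lowest in Terc+/- replicate 2 and 21 in Terc+/- replicate 3. The array score of the list, the mean deviation of its members from their mean over 9 arrays, was -0.23, 0.14 and 1.18 in Terc-/-, 0.84, -0.71 and -0.81 in Terc+/-, and -0.15, 0.92 and -1.18 in Terc+/+ arrays.

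The median of the feeder markers depended on single arrays. It was 0.12 without Terc-/- replicate 3 and 1.14 without Terc+/- replicate 1, and 0.74 without both. In bulk RNA, fewer cells of a type and less RNA per cell cannot be told apart. Of the 136 named genes past 1.5-fold higher in Terc-/- ntESCs, 20 were feeder markers. The feeder score was also entered as a covariate of the fit, and of the 116 other genes 9 then stayed past 1.5-fold higher, with a median of 0.20 against 0.73 without it. Among the leading genes the difference with the covariate was 0.46 for Itga11, 0.01 for Tnc, 0.51 for Gpr176, 0.30 for Cavin2 and 0.38 for Anxa3, while Taf15 gave 1.03, Trps1 0.84 and Sprr2k 1.12. Of the other higher genes described as apart, Hsd3b2 gave 0.56, Ppp3ca 0.54, Npm3-ps1 0.56, Rcor1 0.48, Tatdn2 0.64 and Gm7609 0.66. Zfhx3 gave 0.89 and Rraga 0.79. Of the 28 genes past 1.5-fold lower, 19 stayed so. With the feeder score as a covariate in the fit, 432 probes were higher and 406 lower at an unadjusted p under 0.05 and none was called (limma).

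Glycolysis genes had lower means in Terc-/- ntESCs. The pathway turns glucose into pyruvate and lactate, and naive embryonic stem cells use it beside respiration. Of 25 listed genes 22 were measured, and 20 had a lower mean in Terc-/- ntESCs, with a median of -0.23, against 8352 of 16110 over all named genes and a median of -0.0044. At an unadjusted p under 0.05, 3 were lower (limma), beside 149 of all named genes (0.925%), and none was called. The arrays stood apart for 7 members (31.8%), all lower, beside 3.89% over all named genes. Because the members were chosen with earlier results known, these counts describe the list and carry no test.

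The 7 members that stood apart act at steps from phosphofructokinase to lactate dehydrogenase. Pfkl, the liver form of phosphofructokinase, had 10.37, 10.52 and 9.87 in Terc-/- and 10.52, 11.37 and 11.03 in Terc+/- arrays. The nearest arrays of the genotypes almost touched, and the difference was -0.72 (SE 0.44). Its dim second probe gave -0.12. Aldoc and Aldoa encode aldolases, which split fructose bisphosphate. Aldoc had 7.02, 6.92 and 6.32 in Terc-/- and 7.03, 7.73 and 7.63 in Terc+/- arrays, again with almost no gap (-0.71, SE 0.43). Aldoa had 11.40, 11.76 and 11.75 in Terc-/- and 11.81, 12.45 and 12.02 in Terc+/- arrays (-0.46, SE 0.18).

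Tpi1, triosephosphate isomerase, had 11.83, 12.07 and 11.73 in Terc-/- and 12.21, 12.31 and 12.27 in Terc+/- arrays. All Terc+/- arrays were higher and close to each other, and the difference was -0.39 (SE 0.31). Its other probes gave -0.50, apart, and -0.10, overlapping. Pgam1, phosphoglycerate mutase, had 10.13, 10.38 and 10.26 in Terc-/- and 10.45, 10.90 and 10.57 in Terc+/- arrays (-0.39, SE 0.15). Eno3, an enolase, had 7.46, 7.71 and 7.64 in Terc-/- and 8.14, 7.87 and 7.84 in Terc+/- arrays. It had the smallest SE of the 7, with a difference of -0.35 (SE 0.10). Ldha, lactate dehydrogenase A, had 12.04, 12.47 and 12.33 in Terc-/- and 12.50, 12.74 and 12.61 in Terc+/- arrays (-0.34, SE 0.23).

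The other glycolysis genes overlapped. Slc2a1, the glucose transporter GLUT1, had 12.25, 12.54 and 11.96 in Terc-/- and 12.50, 12.97 and 12.70 in Terc+/- arrays (-0.48, SE 0.24), with only the second Terc-/- array inside the Terc+/- range. Pfkp, the platelet form of phosphofructokinase, gave -0.50 (SE 0.55), Pkm -0.26 (SE 0.12), Slc2a3 -0.25 (SE 0.18) and Gapdh -0.14 (SE 0.09). The other probes of Pfkp gave -0.30 and 0.07. The 2 members with a higher mean were Pgk1, phosphoglycerate kinase (0.13), and the regulator Pfkfb3 (0.03). The Terc+/+ arrays reached beyond both genotypes on either side for 2 of the 7: Pfkl had 10.64, 9.68 and 11.53 there, and Tpi1 had 11.75, 11.20 and 12.65.

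The glycolysis score was -0.13, -0.07 and -0.23 in Terc-/-, -0.0079, 0.24 and 0.12 in Terc+/-, and 0.09, -0.16 and 0.14 in Terc+/+ arrays. Each Terc-/- array lay below each Terc+/- array, and the Terc+/+ arrays lay on both sides. Between 18 and 21 of the 22 members had a lower mean when any single array was left out. Without Terc-/- replicate 3 and Terc+/- replicate 1, the arrays with the highest feeder score of their genotype, 21 were lower with a median of -0.28, and with the feeder score as a covariate 20 were lower with a median of -0.16. With that covariate Pfkl gave -0.35, Aldoc -0.34, Tpi1 -0.18, Ldha -0.21 and Slc2a1 -0.29, while Aldoa gave -0.49, Eno3 -0.41 and Pgam1 -0.31.

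**Figure D3:**
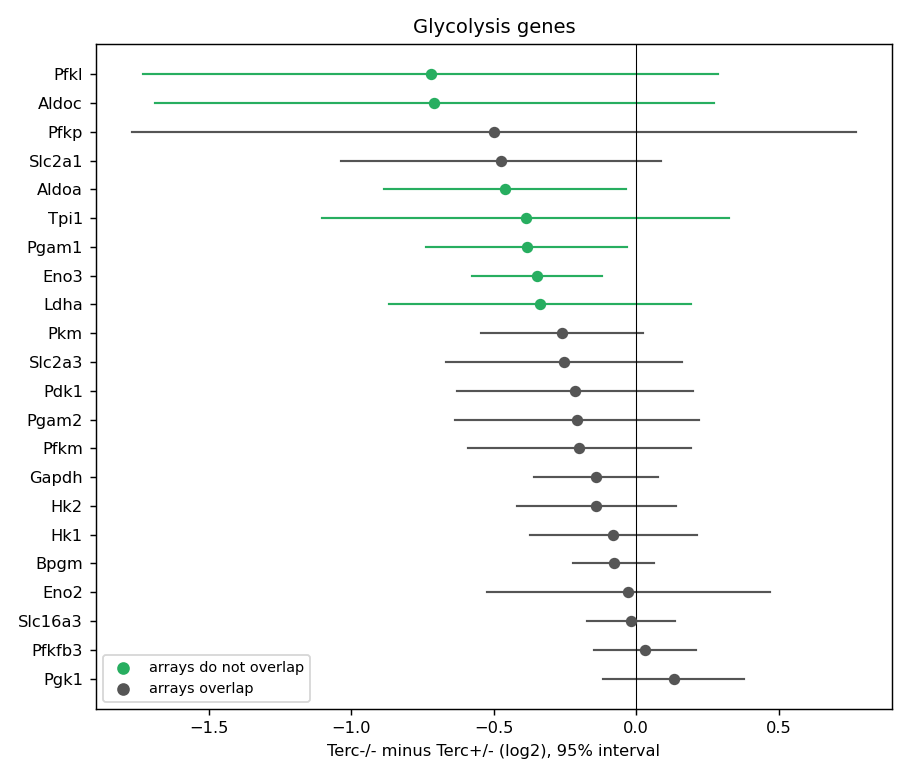
Terc-/- minus Terc+/- difference (log2, horizontal axis) of the 22 measured glycolysis genes, with 95% intervals from limma, ordered by difference. The 7 genes whose arrays did not overlap (green) are all lower in Terc-/-, and only the intervals of Aldoa, Pgam1 and Eno3 leave out 0.

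The promoters of 4 of these 7 genes are printed because glycolytic enzymes share a known regulator, the hypoxia-inducible factor HIF, whose binding sequences often hold the letters ACGTG. The form GCGTG, which HIF can bind too, was not counted. The 4 are those 3 that hold the letters and, of those that do not, the gene with the largest difference. Each is a stretch of 300 bases at the gene's start in RefSeq (GRCm38.p6), mostly upstream of it, 5′ to 3′ on the strand of the gene, and where RefSeq lists 2 starts (Aldoc and Ldha) the first is given. Capitals mark ACGTG on either strand, so that CACGT is a match on the opposite strand and CACGTG 2 matches that overlap. Aldoc lies at chr11:78322823-78323122 on the plus strand, Pgam1 at chr19:41911621-41911920 on the plus strand, Ldha at chr7:46845554-46845853 on the plus strand and Pfkl at chr10:78009758-78010057 on the minus strand.
Aldoc: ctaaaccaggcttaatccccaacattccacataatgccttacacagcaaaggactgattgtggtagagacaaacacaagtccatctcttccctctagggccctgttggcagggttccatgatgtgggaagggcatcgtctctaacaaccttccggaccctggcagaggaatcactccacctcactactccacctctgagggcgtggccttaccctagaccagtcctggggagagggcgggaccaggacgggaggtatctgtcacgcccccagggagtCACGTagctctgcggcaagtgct
Pgam1: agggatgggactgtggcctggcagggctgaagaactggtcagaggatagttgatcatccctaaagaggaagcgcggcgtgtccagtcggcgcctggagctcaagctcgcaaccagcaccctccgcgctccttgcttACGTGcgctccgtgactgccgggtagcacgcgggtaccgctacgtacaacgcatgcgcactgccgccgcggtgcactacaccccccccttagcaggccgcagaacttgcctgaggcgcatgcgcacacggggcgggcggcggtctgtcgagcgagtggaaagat
Ldha: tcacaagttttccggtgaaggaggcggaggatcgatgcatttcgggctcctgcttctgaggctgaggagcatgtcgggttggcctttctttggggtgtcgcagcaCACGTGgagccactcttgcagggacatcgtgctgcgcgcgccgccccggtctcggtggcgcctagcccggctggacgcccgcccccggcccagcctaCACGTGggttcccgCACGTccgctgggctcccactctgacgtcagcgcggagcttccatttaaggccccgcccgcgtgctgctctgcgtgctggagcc
Pfkl: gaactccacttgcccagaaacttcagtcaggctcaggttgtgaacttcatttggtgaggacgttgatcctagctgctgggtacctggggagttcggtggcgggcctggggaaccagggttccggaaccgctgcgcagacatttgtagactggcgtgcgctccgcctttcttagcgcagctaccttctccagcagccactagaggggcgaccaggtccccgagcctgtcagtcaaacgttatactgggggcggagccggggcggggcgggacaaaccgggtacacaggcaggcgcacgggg
Aldoc held 1 match, Pgam1 1 and Ldha 5, of which 4 form 2 CACGTG palindromes, while Pfkl held 0 in this window. Such a match is a description of letters and no proof of a site. Of 21 measured glycolysis genes with a promoter in the table, 10 held the letters (47.6%), and of the 7 that stood apart 3 did (42.9%). Over all named genes of the array with a promoter in the table the share was 2846 of 12992 (21.9%).

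Hypoxia-induced genes, which HIF raises when oxygen is short, had a median nearer to 0. Of 22 listed 20 were measured, with 13 lower and 7 higher means and a median of -0.08. The 2 that stood apart, Aldoc and Ldha (10% of the measured list, beside 3.89% of all named genes lower), are also glycolysis genes. Egln3, a prolyl hydroxylase that marks HIF for degradation and is itself induced by it, had 7.61, 8.0 and 6.86 in Terc-/- and 7.80, 9.02 and 8.82 in Terc+/- arrays. One Terc-/- array lay within the Terc+/- range, and the difference was -1.06 (SE 0.70), or -0.46 with the feeder covariate. The dim second probe of Egln3 gave -0.31. Ddit4, the mTORC1 inhibitor REDD1, gave -0.53 (SE 0.32), or -0.31 with the covariate, Stc2 -0.44 and Ndrg1 -0.34. Other hypoxia genes were level or higher, among them Vegfa (0.06), the growth factor of blood vessels, Car9 (0.09) and Kdm3a (0.12). The promoter letters ACGTG occurred in 12 of 18 members with a promoter in the table (66.7%).

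The lowest mean difference of any named gene was that of Zscan4c. It belongs to a cluster that embryonic stem cells switch on in passing when they enter the two-cell-like state, and Zscan4 is known to lengthen telomeres by recombination in mouse cells. Zscan4c had 6.57, 7.89 and 7.22 in Terc-/-, 8.99, 9.71 and 6.95 in Terc+/-, and 7.28, 6.98 and 5.55 in Terc+/+ arrays. Terc+/- replicates 1 and 2 were the highest of all arrays, while replicate 3 lay within the Terc-/- range, and the difference was -1.32 (SE 0.74). Tcstv3, another gene of that state, had 6.60, 7.31 and 6.42 in Terc-/- and 7.72, 8.81 and 6.76 in Terc+/- arrays (-0.98, SE 0.51). Tcstv1 (-0.75) and Tmem92 (-0.67) were highest in Terc+/- replicate 2 as well.

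Of 31 listed two-cell-like genes 21 were measured, 15 with a lower and 6 with a higher mean, and the median was -0.09. The highest of the 6 arrays was Terc+/- replicate 2 for 14 of the 21. The score was -0.15, 0.05 and -0.10 in Terc-/- and 0.22, 0.54 and -0.09 in Terc+/- arrays, so that Terc+/- replicate 3 lay with the Terc-/- arrays. Most members were near the floor, with median member means of 5.65 in Terc-/- and 5.75 in Terc+/- ntESCs. Usp17la (-0.38) and Tdpoz3 (-0.09) stood apart lower and Pramel6 (0.09) higher, all at levels of 5.46 to 6.5. That is 9.52% of the measured list lower and 4.76% higher, beside 3.89% and 3.70% of all named genes.

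**Figure D4:**
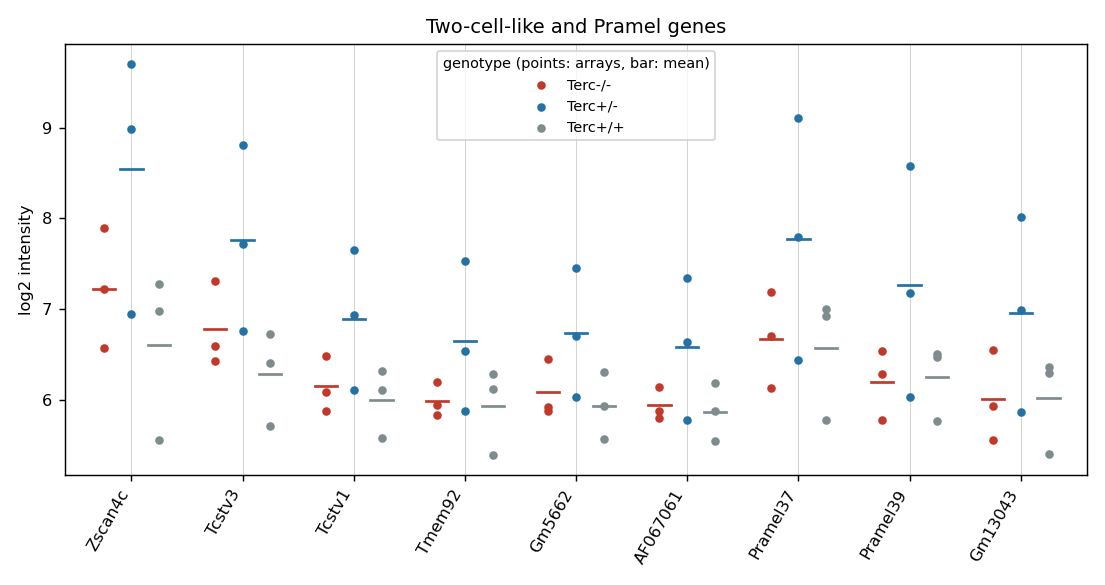
Log2 intensity (vertical axis) of 6 two-cell-like genes and 3 genes whose 6 arrays fall in the same order as for Zscan4c. Points are arrays and bars are means of 3, with 2 of the 3 Terc+/- arrays above the Terc-/- arrays for Zscan4c and Tcstv3 and the remaining Terc+/- array among them.

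Genes of the telomere itself differed little. Of 31 listed telomerase and telomere proteins 22 were measured, with 9 higher and 13 lower means and a median of -0.02. For all 22 the 95% interval lay within 2-fold. Tert, the catalytic subunit, had 5.43, 5.28 and 5.32 in Terc-/- and 5.42, 5.47 and 5.37 in Terc+/- arrays. Dkc1, which encodes dyskerin and binds telomerase RNA, had 5.45, 5.43 and 5.40 in Terc-/- and 5.59, 5.34 and 5.37 in Terc+/- arrays. Both probes read near the floor of the array, where a true difference may not be seen. The largest difference was that of Ruvbl2, an ATPase that helps assemble telomerase and chromatin complexes, with 11.39, 11.25 and 11.18 in Terc-/- and 11.30, 11.77 and 11.78 in Terc+/- arrays (-0.34, SE 0.14). One Terc+/- array lay inside the Terc-/- range.

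Stn1, of the CST complex that finishes telomere replication, gave -0.25 (SE 0.14), and Atrx, a chromatin remodeller at telomeres, -0.20 (SE 0.20). Nop10, a partner of dyskerin, gave 0.21 (SE 0.34). Only Tnks, the poly-ADP-ribosyltransferase tankyrase, stood apart, by 0.12 at a level near 6. That is 4.55% of the measured list, beside 3.70% of all named genes higher. The shelterin genes Terf1 (0.04), Terf2 (-0.03), Acd (-0.15), Tinf2 (-0.01) and Terf2ip (0.17) all overlapped.

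Pluripotency genes were close to level. Of 36 listed core and naive genes 27 were measured, 11 higher and 16 lower in the mean, with a median of -0.05, and for 23 the 95% interval lay within 2-fold. Lin28a, whose product blocks the maturation of let-7 microRNAs, had 10.15, 10.20 and 10.14 in Terc-/- and 10.00, 9.90 and 9.95 in Terc+/- arrays. It was the only member that stood apart (3.70% of the list, beside 3.70% of all named genes higher), by 0.21 (SE 0.09). Its second probe stood apart by 0.40. The Terc+/+ arrays were lower than both, at 9.35, 9.21 and 9.55. Dnmt3l, the cofactor of new DNA methylation, gave -0.34 (SE 0.21) and Gbx2 -0.27 (SE 0.27). Sox2 gave -0.21 (SE 0.35), and its second probe 0.15. Primed epiblast genes (17 of 18 measured, 6 higher and 11 lower, median -0.02) were led by Otx2 (-0.68, SE 0.50) and the Wnt factor Lef1 (-0.47, SE 0.19), both overlapping.

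Targets of p53, the factor that dysfunctional telomeres are known to activate, had higher means in 29 of 39 measured genes (42 listed), with a median of 0.11. Zmat3, a zinc-finger protein and long-known p53 target, had 9.96, 10.03 and 10.34 in Terc-/- and 9.88, 9.66 and 9.91 in Terc+/- arrays, apart by a narrow gap (0.29, SE 0.11). Tap1, the peptide transporter, stood apart by 0.17 near the floor. These 2 were 5.13% of the measured list, beside 3.70% of all named genes higher. The largest differences were those of Ephx1 (0.68, SE 0.67), Ccng1 (0.60, SE 0.38), Plk2 (0.55, SE 0.35) and Phlda3 (0.43, SE 0.25), and in all 4 the highest Terc-/- value was that of replicate 3 and the highest Terc+/- value that of replicate 1. Those are also the arrays with the highest feeder scores of their genotype. With the feeder covariate the differences were 0.07 for Ephx1, 0.27 for Ccng1, 0.29 for Plk2, 0.29 for Phlda3 and 0.24 for Zmat3. The other probes of Ccng1, which are bright as well, gave only 0.11 and 0.15, and that of Phlda3 gave 0.20. Mdm2 gave 0.35 (SE 0.17) and the cell cycle inhibitor Cdkn1a 0.32 (SE 0.43). The Terc+/+ score of the list, at 0.13 in the mean, was above both -0.0042 in Terc-/- and -0.13 in Terc+/- arrays.

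The amino acid and ER stress response, which the factor Atf4 drives, had lower means in 23 of 35 measured genes (37 listed), with a median of -0.13. Chac1, which degrades glutathione, had 10.25, 8.95 and 8.10 in Terc-/- and 9.71, 9.71 and 10.52 in Terc+/- arrays. The first Terc-/- array lay inside the Terc+/- range, and the difference was -0.88 (SE 0.51). Herpud1, of ER-associated degradation, gave -0.44 (SE 0.18), the stress gene Nupr1 -0.43 (SE 0.37) and Atf4 itself -0.39 (SE 0.25). Hspa5, the ER chaperone BiP, stood apart higher by 0.17, and Cebpb gave 0.43 (SE 0.26). Only Hspa5 stood apart (2.86% of the list, beside 3.70% of all named genes higher). The median was 0.0039 without Terc+/- replicate 2.

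**Figure D5:**
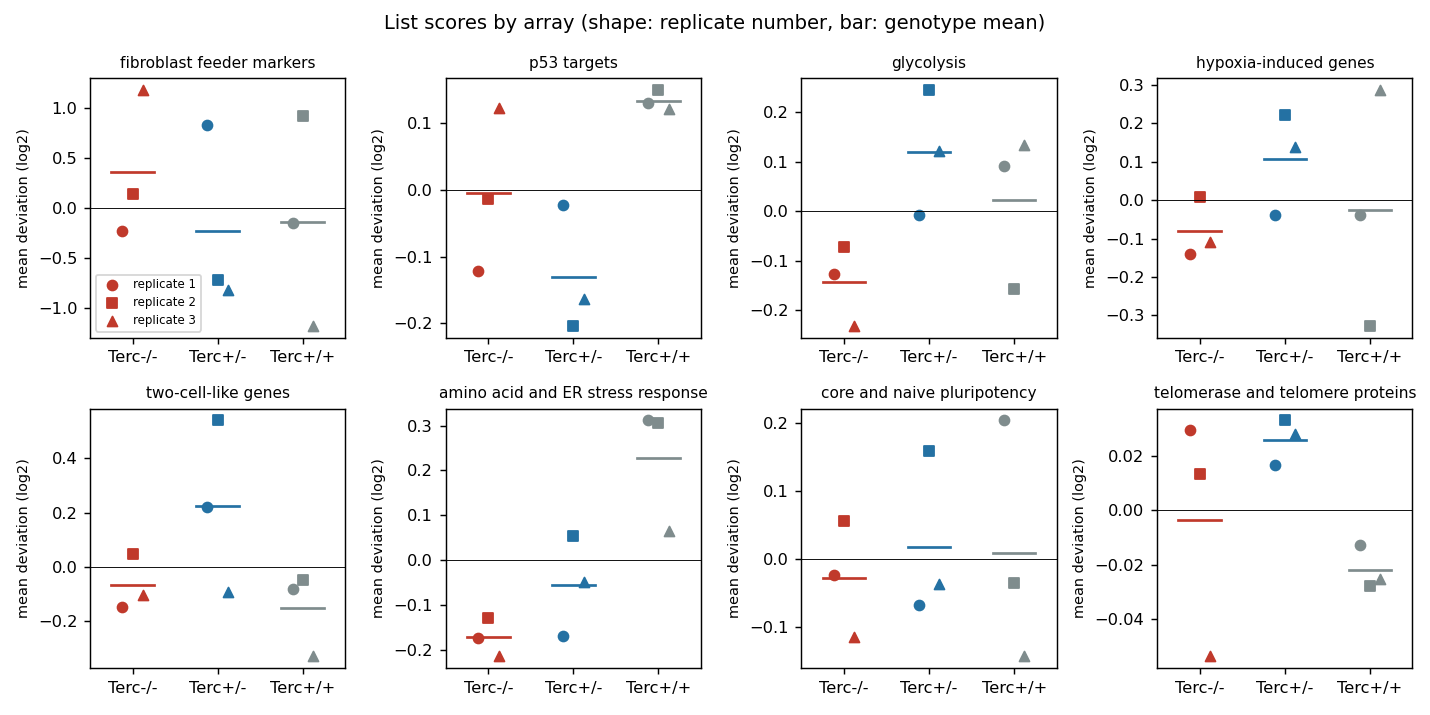
Score of 8 gene lists in each array, the mean deviation of the members from their mean over 9 arrays (log2, vertical axis, with a scale of its own in each panel). Shapes mark the replicate number and bars the mean of 3 arrays, and of these 8 lists only glycolysis has 3 Terc-/- scores that all lie below the 3 Terc+/- scores, while the feeder scores interleave.

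Genes of energy and protein synthesis had medians near 0. Oxidative phosphorylation genes (54 of 57 measured) had 34 higher and 20 lower means with a median of 0.04. Uqcrb, of complex III, gave -0.67 (SE 0.40) and Cox7b, of complex IV, 0.45 (SE 0.31). Mitochondrial biogenesis regulators (18 of 21) had 10 higher and 8 lower means (median 0.0036). The mitochondrial glycerol-3-phosphate dehydrogenase Gpd2 had 9.83, 9.92 and 9.77 in Terc-/- and 9.59, 9.61 and 9.56 in Terc+/- arrays, apart by 0.25 (SE 0.08), and its second probe by 0.26. Cytosolic ribosomal proteins (55 of 76) had 23 higher and 32 lower means (median -0.02). Rpl22 had 10.28, 10.19 and 10.11 in Terc-/- and 10.55, 10.60 and 10.54 in Terc+/- arrays, apart by -0.37 (SE 0.09), and Rpl39 gave -0.40 (SE 0.23). Ribosomal protein genes have many near-identical pseudogenes, so single probes may read more than 1 locus. Apart higher were 11.1% of the biogenesis regulators and apart lower 3.64% of the ribosomal proteins. Over all named genes 3.70% stood apart higher and 3.89% lower.

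Genes of proliferation and genome care were also near level. Cell cycle genes (38 of 42) had 17 higher and 21 lower means (median -0.02). Cyclin D2 (Ccnd2) was higher by 1.00 (SE 0.85) with overlap, or 0.23 with the feeder covariate, and Gmnn, the inhibitor of origin licensing, stood apart by 0.35 (SE 0.17), as did cyclin D3 (Ccnd3) lower by 0.29. DNA damage signalling and repair genes (43 of 50) had 14 higher and 29 lower means (median -0.05), with Fancc at -0.30 (SE 0.19). Brca1 stood apart by 0.29 (SE 0.16), and Lig3 and Palb2 at -0.18 and -0.06. Apart higher and lower were 2.33% and 4.65% of the repair genes and 2.63% each of the cell cycle genes. Over all named genes the shares were 3.70% and 3.89%. Replication-dependent histones (49 of 55) had 17 higher and 32 lower means (median -0.06), led by H2bc4 (0.70) and H1f2 (0.67), which gave 0.28 and 0.15 with the covariate. Splicing and RNA-binding factors of the FET and SR families (24 of 30), the list that holds Taf15, had 8 higher and 16 lower means (median -0.07), and Srsf10 gave -0.45 (SE 0.35) and -0.03 on its other probe.

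Lists of chromatin and imprinting had medians near 0. Imprinted genes (27 of 36) had 11 higher and 16 lower means (median -0.02). The fetal growth factor Igf2 was at 0.56 (SE 0.76), or -0.10 with the feeder covariate. Ube3a stood apart by 0.50 (SE 0.27), while its dim second probe gave -0.02. Of the imprinted genes 7.41% stood apart higher and 3.70% lower, beside 3.70% and 3.89% of all named genes. DNA methylation and demethylation genes (16 of 21) had 7 higher and 9 lower means (median -0.03), with Gadd45a at -0.24. Germline genes that methylation silences (21 of 24) had 8 higher and 13 lower means (median -0.03), with Rhox5 at 0.29 and Tuba3a at -0.26. Of the Y-linked genes with Xist 8 of 9 were measured, 7 lower and 1 higher, that being Xist, whose RNA coats and silences the X in female cells, with 5.67, 6.22 and 7.01 in Terc-/- and 5.90, 5.73 and 5.53 in Terc+/- arrays (0.58, SE 0.33). Its second probe gave 0.04, and Zfy1, Sry and Zfy2 gave -0.12, -0.12 and -0.09 near the floor. These dim genes do not stand for the list, whose median member means were 6.07 in Terc-/- and 5.84 in Terc+/- ntESCs. The list had a median difference of -0.02 and mean scores of 0.06 in Terc-/- and 0.04 in Terc+/- arrays. The sex of the cells was not tested.

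Among stress and metabolic lists, heat shock genes (18 of 21) had 10 higher and 8 lower means (median 0.02), with Cryab at 0.64 (0.14 with the covariate) and Hsp90aa1 at 0.37. Cholesterol synthesis and uptake genes (16 of 26) had 4 higher and 12 lower means (median -0.11), with Pmvk at -0.31 (SE 0.13) and Hsd17b7 at 0.37. Glutathione and antioxidant enzymes (30 of 33) had 13 higher and 17 lower means (median -0.05), with Gsto1 at 0.57 and Gpx3 at 0.43, which were 0.01 and 0.05 with the feeder covariate. Of these enzymes Gstm1 (-0.33), Gstp1 (-0.32) and Gsta4 (-0.19) stood apart lower (10% of the list) and Gpx1 (0.21) higher (3.33%). Immediate early genes (20 of 21) had 11 higher and 9 lower means (median 0.05), with Junb at 0.39 and Fosb at 0.32. Interferon response genes (19 of 22) had 14 higher and 5 lower means (median 0.09), with Usp18 at 0.40 and Ifit2 at 0.34. The other probes of Usp18 gave 0.07 and -0.11, and that of Ifit2 gave 0.33. The heat shock, cholesterol, immediate early and interferon lists held 0 members that stood apart, beside 3.70% higher and 3.89% lower over all named genes.

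Signalling and lineage lists completed the survey. TGF-beta and BMP targets (18 of 21) had 12 higher and 6 lower means (median 0.09), with Cdkn2b at 0.59 and Tgfb1 at 0.57, and Wnt targets (17 of 19) had 7 higher and 10 lower (median -0.04), with Ccn4 at 1.00 and Cdx1 at 0.48, which were 0.10 and 0.25 with the feeder covariate. The Wnt targets Dkk1 (-0.23) and Cdx2 (-0.13) stood apart lower (11.8% of the list, beside 3.89% of all named genes lower). The dimmer second probe of Ccn4 gave 0.30 and that of Cdx1 0.39. Endoderm genes (20 of 22) had 14 higher and 6 lower means (median 0.08), with the basement membrane collagens Col4a1 (0.72) and Col4a2 (0.64), which fibroblasts make too and which were -0.05 and -0.19 with the covariate. Mesoderm genes (17 of 19) had 7 higher and 10 lower (median -0.02), with Snai1 at 0.67 and Eomes at -0.21. Neuroectoderm genes (16 of 19) had 11 higher and 5 lower (median 0.05), with Ncam1 at 0.41 and Nes at 0.27. The second probe gave 0.15 for Snai1, 0.25 for Ncam1 and -0.02 for Nes. Trophoblast genes (16 of 18) had 5 higher and 11 lower means (median -0.05), with Krt8 at -0.41. Among them Peg10 (-0.15) and Cdx2 stood apart lower (12.5% of the list, beside the same 3.89%). Endothelial genes (15 of 15) had 4 higher and 11 lower (median -0.03), with Flt1 at 0.49 and Egfl7 at -0.31.

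Markers of blood and skin were mostly dim in both genotypes. Macrophage and blood genes (17 of 21) had 14 higher and 3 lower means (median 0.07), with the lysozymes Lyz1 (0.49) and Lyz2 (0.45), and the leukocyte marker Ptprc read near the floor at -0.12. Epidermal genes (17 of 18) had 9 higher and 8 lower (median 0.02), with involucrin (Ivl) at 0.28. Only the integrin Itga6 stood apart, by 0.57 (SE 0.26), which is 5.88% of the list, beside 3.70% of all named genes higher.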

How the data were processed

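Per the labels' protocols, total RNA was amplified into biotin-labelled cRNA and read on bead arrays, 1 array per sample. The values used were log2 intensities that the authors deposited, 1 per probe and array. The scale was read from the values, which ran from 5.11 to 14.8 with a median of 5.94 on each array, and how the background was corrected and the arrays normalized is not given in the sources used here. Another deposited table, of raw signals, has 18 columns named by chip and position that match no sample label, and was left out.

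Of 25697 probes, 23141 had 1 gene symbol in the platform annotation, 0 several and 2556 none, and a RefSeq match changed 0 symbols. Of 16110 genes, 4507 had more than 1 probe. All 9 arrays were fitted as 3 genotype means with R 4.3.3 and its package limma 3.58.1 (lmFit, contrasts.fit, eBayes, 6 residual degrees of freedom, prior 2.08), two-sided, with Benjamini-Hochberg adjustment over all probes and calls under 0.05. The code was tested on simulated data. Precision is limited by the 3 arrays per genotype.

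The comparison, the genes and the 34 gene lists were chosen with earlier results of these data known. Named are the 5 probes with the smallest p each way, the 10 largest differences each way among genes with a mean above 6.5 whose arrays did not overlap, the 8 largest each way, and, of 9 lists described in full, the members without overlap and the 4 largest differences, and of the other 25 lists the 2 largest. Other genes given with a value were picked after their values were seen. Same-numbered arrays of Terc-/- and Terc+/- deviated from their genotype means with correlations of -0.60, 0.35 and -0.57, so samples were not paired by number. With 3 arrays a genotype this cannot exclude a batch shared by same-numbered arrays. Alternatives were the 6 arrays alone, array weights, cyclic loess, trend and robust variance, filters on dim probes, 1 probe per gene, a feeder covariate, a replicate block and leaving out each array.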

Additional observations from a re-analysis of the deposited data

How the results depend on the processing

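The count of called probes was 0 under every alternative run (limma). Probes with an unadjusted p under 0.05, 199 higher and 267 lower, were 343 and 433 with the 6 arrays alone, 570 and 697 with array weights, 251 and 229 with cyclic loess, 48 and 33 above a mean of 6, 32 and 19 above a mean of 7, 432 and 406 with the feeder covariate, and 176 lower with 1 probe per gene. Leaving out 1 array gave 143 to 413 higher and 146 to 494 lower, with 385 and 474 without Terc+/+ replicate 3, 413 and 494 without Terc+/- replicate 1, 167 lower without Terc+/- replicate 2 and 191 and 146 without Terc-/- replicate 3. Higher probes outnumbered lower ones with cyclic loess, both filters, the feeder covariate and without Terc-/- replicate 3, and not otherwise. With a replicate block, which the correlations give no ground for, the smallest adjusted p was 1.00 with 164 higher and 231 lower, and only replicate 2 correlated best with its own number. The filters left fewer probes to test, 8404 of 25697 above a mean of 7, but the counts fell by more than that. The causes of these changes were not tested. The setting that starts from raw signals was not run, since its columns match no sample label. With 3 arrays a genotype, members near the floor of the array cannot show a lower level, and only 5 of 42 feeder markers had an interval within 2-fold.

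The median of two-cell-like genes was -0.66 above a mean of 6 and -0.57 above 7, that of glycolysis -0.34 and of hypoxia -0.22 above 7, where dim members drop out. The amino acid and ER stress median ran from -0.175 to 0.0039 without 1 array. With the feeder covariate 22 feeder markers were higher, by construction of the covariate. With it the difference turned to -0.048 in Col4a1, -0.19 in Col4a2, -0.041 in Flt1, -0.10 in Igf2, -0.041 in Ncam1, -0.060 in Nop10, -0.22 in Pou5f1, -0.028 in Rhox5 and 0.066 in Gabpb1. Dkc1 turned to 0.013 with array weights. Leaving out Terc-/- replicate 3 and Terc+/- replicate 1 together, an alternative chosen after seeing the data, gave 0.081 in Dkc1, 0.14 in Gbx2 and -0.050 in Pou5f1. Without 1 array the sign also turned in Dkc1 (-0.054 to 0.070), Fosb (-0.076 to 0.60), Lyz1 (-0.0025 to 1.03), Ncam1 (-0.012 to 0.74), Nes (-0.026 to 0.55), Nop10 (-0.010 to 0.49), Pou5f1 (-0.089 to 0.22), Rhox5 (-0.20 to 0.60), Sox2 (-0.38 to 0.055) and Tuba3a (-0.46 to 0.049).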

Other observations

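The genes Pramel37, Pramel39 and Gm13043 put the 6 arrays in the same order as Zscan4c and were among the 8 lowest differences. Pramel37 had 6.13, 7.19 and 6.70 in Terc-/- and 7.79, 9.10 and 6.43 in Terc+/- arrays (-1.11, SE 0.65), and Pramel39 had 5.78, 6.54 and 6.28 in Terc-/- and 7.18, 8.58 and 6.03 in Terc+/- arrays (-1.06, SE 0.57). Terc+/- replicate 2 was the highest and Terc+/- replicate 3 within the Terc-/- range in both. The Pramel family, a large group of genes active in germ cells and early embryos, was looked at after these values were seen. Of 15 measured members, 11 had a lower and 4 a higher mean, with a median of -0.08. In the family 1 stood apart each way, beside 3.70% higher and 3.89% lower over all named genes. At an unadjusted p under 0.05, 0 were lower, beside 0.925% of all named genes (limma). Only 6 members exceeded a level of 6 in Terc+/- ntESCs, so most read near the floor, and 5 had their highest value in Terc+/- replicate 2. Pramel20 gave -0.78 and Pramel31 -0.43, while Pramel12, among the brighter members at a level near 8, gave 0.02.

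Mgarp, a mitochondrial protein of steroid-producing cells that hypoxia is known to induce, gave -0.84 (SE 0.78), or -0.15 with the feeder covariate, with 8.90, 9.26 and 7.78 in Terc-/- and 8.51, 9.72 and 10.23 in Terc+/- arrays. Its Terc+/+ arrays ran more widely than either, at 8.39, 6.99 and 10.05.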
